A study of Mus musculus with 11 samples.

Results

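The Pbx, Meis and Pknox Hox cofactors were followed in 3 kinds of sorted mouse motor neuron. The 7 genes described are Pbx2, Pbx3, Meis1, Meis2, Meis3, Pknox1 and Pknox2, out of 18193 genes on the array. They were chosen by name, with earlier results of these data known. Every probe set whose annotation gave one of these symbols and no other was taken, which gave 18 of the 45037 probe sets tested. A probe set is a group of short oligonucleotides on the array that reads 1 transcript region. The probe set with the highest mean over all arrays stood for its gene, and the others were described beside it.

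RNA was taken from C57/BL6 embryos that carried Hb9::GFP, a reporter driven by regulatory sequence of the motor neuron gene Mnx1, and was measured on 11 arrays. Phrenic motor neurons, which innervate the diaphragm, were marked by a rhodamine dextran taken up through the phrenic nerve and filled 4 arrays. Motor neurons of the lateral motor column, marked through the radial nerve of the forelimb and written LMC radial, filled 3 arrays. Cells of segments C3-C5 that carried GFP without the dextran label are written C3-C5 GFP-only and filled 4 arrays. All cells were sorted by fluorescence from dissociated spinal cord, and no genotype other than the reporter was named. The LMC radial titles name no segment, so segment level and cell type cannot be told apart in comparisons with those arrays. The study set each cell type against the overall expression. Here the types were set against each other in pairs, and each type against the average of the remaining ones.

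Markers of the labelled cell types were read first. The array medians lay at 4.48 to 4.63. Of 7 motor neuron genes 5 were above 5 on all arrays, and Chat and Slc5a7 were not. LMC radial neurons were lower in 3 of the 7 than C3-C5 GFP-only cells, and Isl1 averaged 12.32 in phrenic neurons, 9.63 in LMC radial neurons and 11.99 in C3-C5 GFP-only cells. Genes of the phrenic column averaged 10.68 ± 0.13 in phrenic neurons, 8.91 ± 0.11 in LMC radial neurons and 9.68 ± 0.12 in C3-C5 GFP-only cells (SD). Genes of the lateral motor column averaged 8.48 to 9.52 per array, 10.89 to 11.02 and 10.10 to 10.42 in the same order, and none of the 7 passed between LMC radial neurons and C3-C5 GFP-only cells. Genes of the medial motor column averaged 7.18 to 8.98 per array in phrenic neurons, 6.75 to 7.15 in LMC radial neurons and 11.08 to 11.28 in C3-C5 GFP-only cells. The arrays fell into 2 sets by the 25th percentile of their values. The lower set, at 3.18 to 3.20, held phrenic replicates 2 and 3 and C3-C5 GFP-only replicates 2 and 3, and the other 7 arrays lay at 3.26 to 3.38. All values are RMA values on the log2 scale, on which a difference of 1 is a doubling, and levels of different probe sets were not set against each other. Differences are given as log2 difference ± SE, and adjusted p-values are from limma over all probe sets. A value was taken as passing at an adjusted p under 0.05. Nothing in the labels ties a replicate to an embryo or litter of its own, so the spread behind the p-values is that between arrays and may be technical.

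These genes encode homeodomain proteins of the TALE class, named for a loop of extra amino acids in the homeodomain. Pbx proteins bind DNA together with Hox proteins and sharpen which sites a Hox protein takes. Meis and Pknox (also called Prep) proteins bind Pbx directly and compete for the same surface, and Meis and Pknox partners keep Pbx in the nucleus. In the developing hindbrain and spinal cord, where Hox genes set the segmental and columnar identity of motor neurons, Pbx genes are known to be needed for motor neuron columns to form in order.

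The Meis genes gave the clearest differences between the types. Meis1 and Meis3 were lowest in phrenic neurons and highest in C3-C5 GFP-only cells, with LMC radial neurons between them, and no Meis2 difference passed. Meis1, a Hox and Pbx partner best known from blood stem cells and leukaemia, lies at chromosome 11, 18880428 to 19019651 (GRCm38.p6). Meis3, known for its part in hindbrain patterning in frog and fish embryos, lies at chromosome 7, 16174012 to 16186510. The sequences just before a RefSeq transcript start of each are shown because these members fell together in phrenic neurons. Each is the 250 bases before the start, with CpG dinucleotides in capitals, at chr11:19018970-19019219 on the minus strand for Meis1 and at chr7:16175145-16175394 on the plus strand for Meis3.

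Meis1: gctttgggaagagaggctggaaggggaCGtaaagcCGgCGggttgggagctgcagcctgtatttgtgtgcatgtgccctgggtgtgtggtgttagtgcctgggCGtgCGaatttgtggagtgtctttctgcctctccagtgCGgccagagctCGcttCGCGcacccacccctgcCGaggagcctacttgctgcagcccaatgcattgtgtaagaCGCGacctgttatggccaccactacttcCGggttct

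Meis3: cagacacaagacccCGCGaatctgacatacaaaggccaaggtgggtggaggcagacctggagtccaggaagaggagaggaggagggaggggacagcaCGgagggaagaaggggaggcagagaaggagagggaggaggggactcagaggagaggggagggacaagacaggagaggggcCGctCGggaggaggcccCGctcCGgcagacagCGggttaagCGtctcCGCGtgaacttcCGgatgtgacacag

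Both stretches were richer in CpG than the usual promoter window. Meis1 held 13 CpG at 59.6% GC and Meis3 held 12 CpG at 63.6% GC, against a median of 6 CpG and 52.4% GC over 32851 RefSeq windows. Of all windows, 68.5% had fewer CpG than Meis1 and 66.5% had fewer than Meis3. Both stretches lie inside the RefSeq gene spans, so other transcripts of these genes start elsewhere. In windows of 300 bases, 250 before the start and 50 after it, 3 motifs were searched on both strands: TGACAG, the site bound by Meis and Pknox proteins, TGATNNAT, a joint Pbx and Hox site, and AGGTCA, the core read by retinoid receptors. None was found in the windows of Meis1, Meis2, Meis3 or Pbx2, the 4 of 7 members for which a window was at hand. Over all windows TGACAG was held by 19.2%, TGATNNAT by 8.85% and AGGTCA by 16.3%.

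Meis1 was measured at 6.87, 8.08, 8.03 and 7.50 in phrenic neurons, at 8.29, 8.55 and 8.49 in LMC radial neurons, and at 8.84, 9.50, 9.52 and 9.13 in C3-C5 GFP-only cells. Every phrenic array lay below every LMC radial array, and every LMC radial array lay below every C3-C5 GFP-only array. Phrenic neurons fell by 1.63 ± 0.26 against C3-C5 GFP-only cells (n = 4 each), which is 3.09-fold lower (adjusted p = 0.00824). The steps on either side of LMC radial neurons did not pass: phrenic minus LMC radial was -0.82 ± 0.28 (95% interval -1.43 to -0.21, adjusted p = 0.111) and LMC radial minus C3-C5 GFP-only was -0.81 ± 0.28 (-1.42 to -0.19, adjusted p = 0.139). So the lowest and the highest type differed beyond the spread between arrays, and neither neighbour pair did at this threshold. The sizes of the steps were not stable. With the array set as a block the first was -1.17 (adjusted p = 0.00594) and the second -0.46 (adjusted p = 0.268), and with the 3′ minus 5′ difference of Actb as a covariate they were -1.33 (adjusted p = 0.0231) and -0.43 (adjusted p = 0.434). With the replicate number as a block both passed, at -0.78 (adjusted p = 0.0410) and -0.84 (adjusted p = 0.0417). Each step passed in 4 of 25 alternative fits, not always the same ones. In sorted bulk RNA, fewer cells that carry a transcript and less of it per cell cannot be told apart.

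Meis3 followed the same order with a smaller spread. Its values were 8.15, 8.07, 7.96 and 8.35 in phrenic neurons, 8.60, 8.67 and 8.63 in LMC radial neurons, and 8.94, 8.79, 8.88 and 8.91 in C3-C5 GFP-only cells. The types did not overlap. Meis3 was 1.68-fold lower in phrenic neurons than in C3-C5 GFP-only cells (-0.74 ± 0.10, adjusted p = 0.00345) and 1.42-fold lower than in LMC radial neurons (-0.50 ± 0.11, adjusted p = 0.0210). The second of these calls was lost without phrenic replicate 2 (-0.48, adjusted p = 0.0540) and without LMC radial replicate 1, 2 or 3 (adjusted p = 0.0594, 0.0774 and 0.0647). It was also lost in a fit of these 2 types only (adjusted p = 0.0840), with the array set as a block (-0.42, adjusted p = 0.0502), within the higher array set (-0.38, adjusted p = 0.196) and with the 3′ minus 5′ difference of Actb, a measure of RNA quality that reached 2.15 in phrenic arrays and 1.12 in LMC radial arrays, as a covariate (-0.45, adjusted p = 0.146). LMC radial minus C3-C5 GFP-only was -0.24 ± 0.11 for Meis3 (95% interval -0.48 to 0.00, adjusted p = 0.246) and did not pass.

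Meis2, the Meis gene known for its broad use in brain and limb development, lies at chromosome 2, 115861264 to 116067537. It averaged 11.89 ± 0.18 in phrenic neurons, 11.90 ± 0.06 in LMC radial neurons and 11.88 ± 0.02 in C3-C5 GFP-only cells (SD, n = 4, 3 and 4). The arrays of all types overlapped. The 95% interval of its difference was -0.22 to 0.24 for phrenic minus C3-C5 GFP-only and -0.25 to 0.24 for phrenic minus LMC radial.

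**Figure D1:**
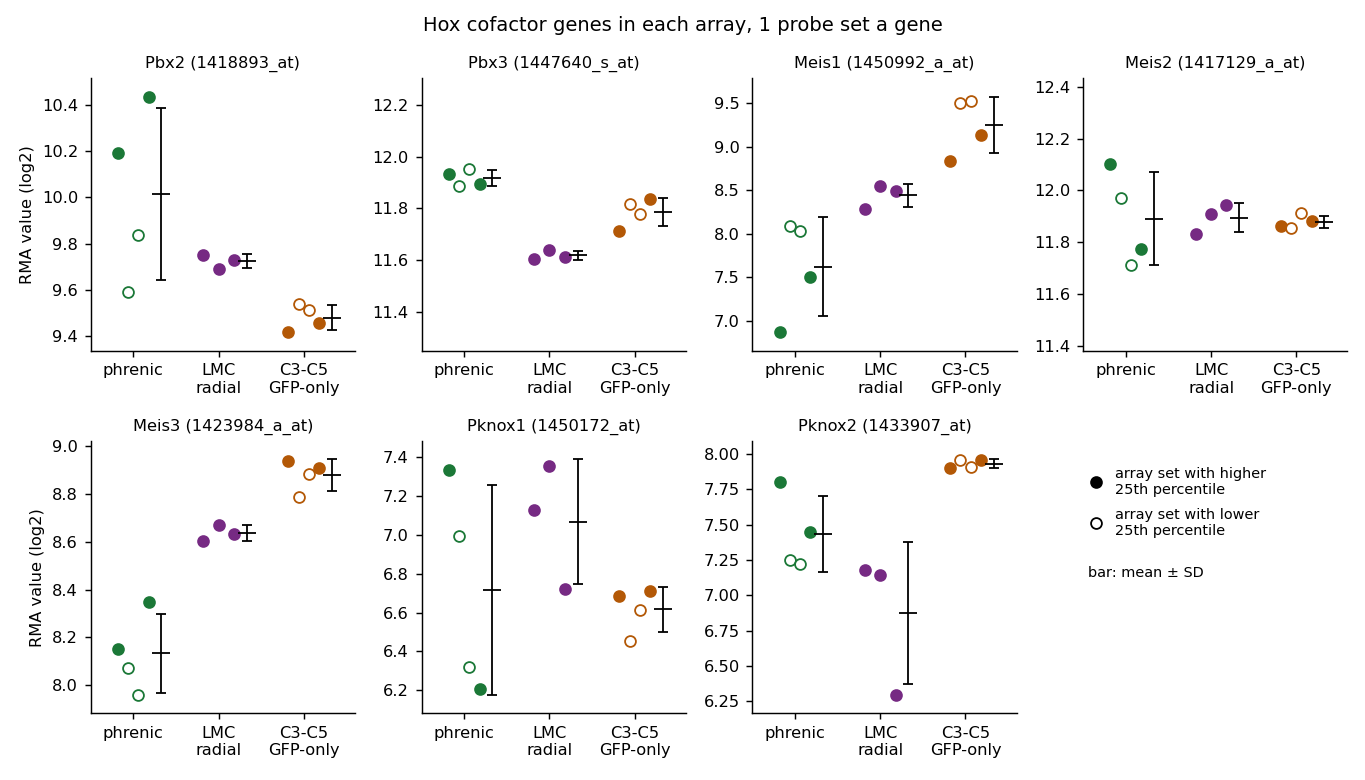
RMA value (log2, vertical axis, a scale of its own in each panel) of the 7 Hox cofactor genes in each of the 11 arrays, with phrenic, LMC radial and C3-C5 GFP-only arrays from left to right. Points are arrays, filled or open by array set, and bars are mean ± SD; Meis1 and Meis3 step upward from phrenic to C3-C5 GFP-only without overlap, and the Meis2 arrays of all types overlap.

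Other measures of the arrays moved with the drop of Meis1 and Meis3 in phrenic neurons. Genes of mesenchyme, a list of 16 of which 5 were above 5 on all arrays and 1 (Lum, at most 4.17) was below 5 on all, had mean levels of 5.98, 5.53, 6.85 and 7.12 in phrenic neurons, 6.08, 6.33 and 5.09 in LMC radial neurons, and 4.58, 5.10, 4.98 and 4.75 in C3-C5 GFP-only cells. Of the 16, 4 were higher and 0 lower in phrenic neurons than in C3-C5 GFP-only cells, and none passed against LMC radial neurons in either direction. With the mean of this list as a covariate the phrenic minus C3-C5 GFP-only difference was -1.75 for Meis1 (adjusted p = 0.177) and -0.80 for Meis3 (adjusted p = 0.116). The size was kept and the call was not. Every phrenic array (5.53 or more) lay above every C3-C5 GFP-only array (5.10 or less) in this mean, so the fit could hardly tell it from cell type. Far fewer of all probe sets passed in this fit than in the main one, so the loss was not particular to Meis1 and Meis3. Neural progenitor genes, 7 measured, averaged 5.95 to 7.44 in phrenic arrays, 5.82 to 6.36 in LMC radial arrays and 5.59 to 5.92 in C3-C5 GFP-only arrays, and none passed in a pairwise comparison. In phrenic neurons against C3-C5 GFP-only cells, 1 of 6 glia genes was higher and 4 of 7 lateral motor column genes were lower. All 3 medial motor column genes were also lower there, with a median difference of -3.22. Beyond the mesenchyme covariate fit, the part of these lists in the Meis differences was not tested. Within the lower array set the Meis1 difference was -1.45 (adjusted p = 0.0396), and within the higher set it was -1.80 (adjusted p = 0.0550), with 2 arrays of each type in either set. The Meis3 difference was -0.82 (adjusted p = 0.113) within the lower set and -0.67 (adjusted p = 0.119) within the higher. Fitting the array set as a block kept both calls, at adjusted p = 0.000462 for Meis1 and 0.00190 for Meis3.

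The Pknox genes split. Pknox2, a Meis-related partner of Pbx also called Prep2, lies at chromosome 9, 36890979 to 37147342. It was measured at 7.81, 7.25, 7.22 and 7.45 in phrenic neurons, at 7.18, 7.15 and 6.29 in LMC radial neurons, and at 7.91, 7.96, 7.91 and 7.96 in C3-C5 GFP-only cells. No arrays of different types overlapped, and LMC radial replicate 3 was the lowest of all. Pknox2 was 2.09-fold lower in LMC radial neurons than in C3-C5 GFP-only cells (-1.06 ± 0.21, n = 3 and 4, adjusted p = 0.0232). The call was lost without C3-C5 GFP-only replicate 2, 3 or 4 (adjusted p = 0.0686, 0.0713 and 0.0516), after quantile normalization (-0.85, adjusted p = 0.0569), with values below 5 raised to 5 (adjusted p = 0.0985) and within the higher array set (-1.06, adjusted p = 0.266). Phrenic neurons stood between, and their Pknox2 differences did not pass: -0.50 ± 0.20 against C3-C5 GFP-only cells (adjusted p = 0.295) and 0.56 ± 0.21 against LMC radial neurons (adjusted p = 0.152), which was 0.27 without LMC radial replicate 3 (adjusted p = 0.439).

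Pknox1, the widely expressed gene for Prep1, lies at chromosome 17, 31564722 to 31607693. It ran between 6.21 and 7.34 in phrenic neurons, 6.72 and 7.36 in LMC radial neurons, and 6.45 and 6.71 in C3-C5 GFP-only cells. The phrenic arrays covered nearly the whole range of the other types. Its differences were 0.10 ± 0.24 for phrenic minus C3-C5 GFP-only (95% interval -0.43 to 0.63, adjusted p = 0.929), -0.35 ± 0.26 for phrenic minus LMC radial (adjusted p = 0.458) and 0.45 ± 0.26 for LMC radial minus C3-C5 GFP-only (adjusted p = 0.360). No Pknox1 difference was detectable at this number of arrays.

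The Pbx genes ran the other way, with their highest values in phrenic neurons, but no difference of their representative probe sets passed. Pbx3, which is widely used in the developing brain and spinal cord and needed for breathing in newborn mice, lies at chromosome 2, 34171457 to 34372045. It was measured at 11.93, 11.89, 11.95 and 11.89 in phrenic neurons, at 11.60, 11.64 and 11.61 in LMC radial neurons, and at 11.72, 11.82, 11.78 and 11.84 in C3-C5 GFP-only cells. The arrays of the types were set apart without overlap, and the distances were small. Phrenic minus LMC radial was 0.30 ± 0.09 (95% interval 0.11 to 0.49, adjusted p = 0.0696), phrenic minus C3-C5 GFP-only 0.13 ± 0.08 (-0.05 to 0.31, adjusted p = 0.583) and LMC radial minus C3-C5 GFP-only -0.17 ± 0.09 (-0.36 to 0.02, adjusted p = 0.307). The Pbx3 difference between phrenic and LMC radial neurons passed in 4 of 25 alternatives. These were quantile normalization (0.33, adjusted p = 0.0458), a trended and robust variance prior (adjusted p = 0.00802), values below 5 raised to 5 (adjusted p = 0.00139) and the mean of both probe sets (0.45, adjusted p = 0.0199). All Pbx3 values lay above 5, so the floor changed none of them. With 1 array left out it passed in 0 of 11 fits (adjusted p up to 0.1715). Within the higher array set it was 0.29 (adjusted p = 0.280).

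Pbx2, a broadly expressed Pbx gene whose loss alone is tolerated in mice, lies at chromosome 17, 34592259 to 34597400. It was measured at 10.19, 9.59, 9.84 and 10.43 in phrenic neurons, at 9.75, 9.69 and 9.73 in LMC radial neurons, and at 9.42, 9.54, 9.51 and 9.46 in C3-C5 GFP-only cells. The phrenic arrays were spread over 0.84 on the log2 scale and lay above all C3-C5 GFP-only arrays, but on both sides of the LMC radial arrays. Phrenic minus C3-C5 GFP-only was 0.53 ± 0.16 (95% interval 0.18 to 0.88, adjusted p = 0.144). It passed without phrenic replicate 2 (0.67, adjusted p = 0.0383), and it was 0.23 without phrenic replicates 1 and 4 (adjusted p = 0.393), the phrenic arrays of the higher set. It was 0.88 within the higher array set (adjusted p = 0.0833), 0.19 within the lower (adjusted p = 0.667) and 0.23 with the mesenchyme covariate (adjusted p = 0.892). Its other probe sets ranked the phrenic arrays differently, with 8.25, 8.20, 7.73 and 7.67 for 1449261_at and 9.62, 9.73, 9.23 and 9.25 for 1418894_s_at.

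Counted over the 7 genes, phrenic minus C3-C5 GFP-only gave 0 higher, 2 lower (Meis1 and Meis3) and 5 that did not pass, where 2.74% of all genes passed in either direction, 1.43% higher and 1.31% lower. Phrenic minus LMC radial gave 0 higher and 1 lower (Meis3), where 6.88% of all genes passed, 3.88% higher and 3% lower. LMC radial minus C3-C5 GFP-only gave 0 higher and 1 lower (Pknox2), where 3.73% passed, 1.7% higher and 2.03% lower. The median difference of the 7 genes was 0.01 for phrenic minus C3-C5 GFP-only, 0.00 for phrenic minus LMC radial and -0.17 for LMC radial minus C3-C5 GFP-only, against 0.01, 0.00 and 0.01 over all genes. Arrays did not overlap for 5 of 7 genes in the first comparison, 4 of 7 in the second and 6 of 7 in the last, where the shares over all genes were 9.29%, 19.3% and 22.9%. The comparisons share arrays, so their counts are not separate evidence.

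**Figure D2:**
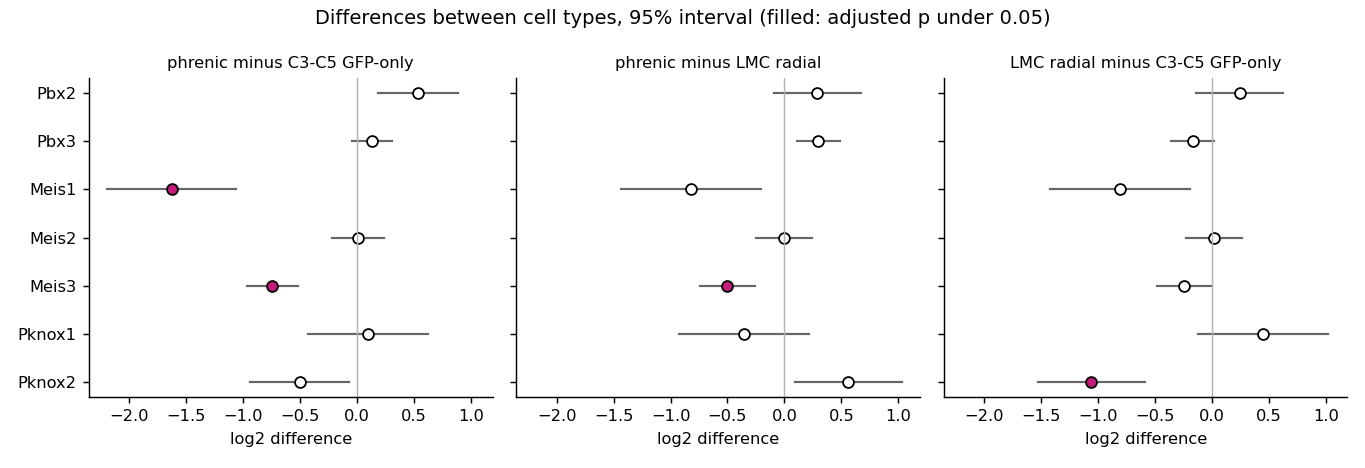
Log2 difference (horizontal axis) of each of the 7 genes in the pairwise comparisons, with bars for the 95% interval and filled points for an adjusted p under 0.05. Filled points are Meis1 and Meis3 in phrenic minus C3-C5 GFP-only, Meis3 in phrenic minus LMC radial and Pknox2 in LMC radial minus C3-C5 GFP-only, all below 0.

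Set against the average of the remaining types, Meis1 and Meis3 lay at opposite ends in phrenic neurons and C3-C5 GFP-only cells. In phrenic neurons Meis1 fell by 1.22 ± 0.23 (adjusted p = 0.0133) and Meis3 fell by 0.62 ± 0.09 (adjusted p = 0.00288), so 0 of 7 were higher and 2 lower, against 4.86% of all genes that passed and 1.79% that were lower. In LMC radial neurons Pknox2 fell by 0.81 ± 0.19 (adjusted p = 0.0284), 1 of 7 against 7.07% of all genes that passed and 3.67% that were lower, and without LMC radial replicate 3 it was -0.52 (adjusted p = 0.0937). In C3-C5 GFP-only cells Meis1 rose by 1.22 ± 0.23 (adjusted p = 0.0351) and Meis3 by 0.49 ± 0.09 (adjusted p = 0.0312), 2 of 7 against 1.2% of all genes that passed and 0.89% that were higher. These last calls were fragile: Meis1 passed in 14 of 24 alternatives and Meis3 in 11 of 24. Leaving out any LMC radial array ended both calls (adjusted p = 0.0898, 0.0713 and 0.0634 for Meis1, and 0.0783, 0.0665 and 0.0566 for Meis3). So did leaving out C3-C5 GFP-only replicate 2, 3 or 4 (0.137, 0.159 and 0.0903 for Meis1, and 0.0872, 0.133 and 0.0933 for Meis3). Meis3 also lost its call without C3-C5 GFP-only replicate 1 (0.0749) and without phrenic replicate 1 (0.0509).

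Probe sets of the same gene did not always give the same answer. The second Meis1 probe set, 1443260_at, averaged 7.33 ± 0.38 in phrenic neurons, 7.84 ± 0.22 in LMC radial neurons and 7.90 ± 0.42 in C3-C5 GFP-only cells, with a phrenic minus C3-C5 GFP-only difference of -0.57 ± 0.23 (adjusted p = 0.320). It shared the sign of the representative Meis1 probe set but not the call, and its LMC radial minus C3-C5 GFP-only difference was -0.06 ± 0.25. The dim Meis1 probe set 1459423_at averaged 5.14, 5.06 and 5.25 in phrenic, LMC radial and C3-C5 GFP-only arrays and gave -0.11 ± 0.40 for phrenic minus C3-C5 GFP-only (adjusted p = 0.957). As the mean of its 3 probe sets Meis1 gave -0.77 for that comparison (adjusted p = 0.0522). Meis3 had 1 probe set only.

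For both Pbx genes a dimmer probe set passed where the representative did not. Pbx3 1421193_a_at was measured at 10.90, 10.93, 10.69 and 10.34 in phrenic neurons, 10.04, 10.24 and 10.07 in LMC radial neurons, and 10.47, 10.62, 10.62 and 10.42 in C3-C5 GFP-only cells. It was higher in phrenic than in LMC radial neurons by 0.59 ± 0.15 (adjusted p = 0.0374). Pbx2 1449261_at averaged 7.96 ± 0.31 in phrenic neurons and 7.35 ± 0.08 in LMC radial neurons and was higher in phrenic neurons by 0.62 ± 0.16 (adjusted p = 0.0415). For both genes every probe set averaged higher in phrenic than in LMC radial neurons. Pbx2 1418893_at (0.29 ± 0.17, adjusted p = 0.355) and 1418894_s_at (0.19 ± 0.13, adjusted p = 0.443) did not pass there, and their arrays overlapped. Meis2 gave mixed signs for phrenic minus LMC radial, -0.31 ± 0.13 (1457632_s_at), 0.46 ± 0.20 (1440091_at) and -0.33 ± 0.16 (1447861_x_at), and none passed. The second Pknox2 probe set, 1428017_at, lay at 2.94 to 3.41 on all arrays, below the array medians, and no difference was read from it. Averaging it with the first took the Pknox2 difference of LMC radial minus C3-C5 GFP-only to -0.55, which is no separate reading. Over the 18 probe sets, 2 passed in phrenic minus C3-C5 GFP-only (1.96% of all probe sets), 3 in phrenic minus LMC radial (6.61%) and 1 in LMC radial minus C3-C5 GFP-only (3.76%).

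**Figure D3:**
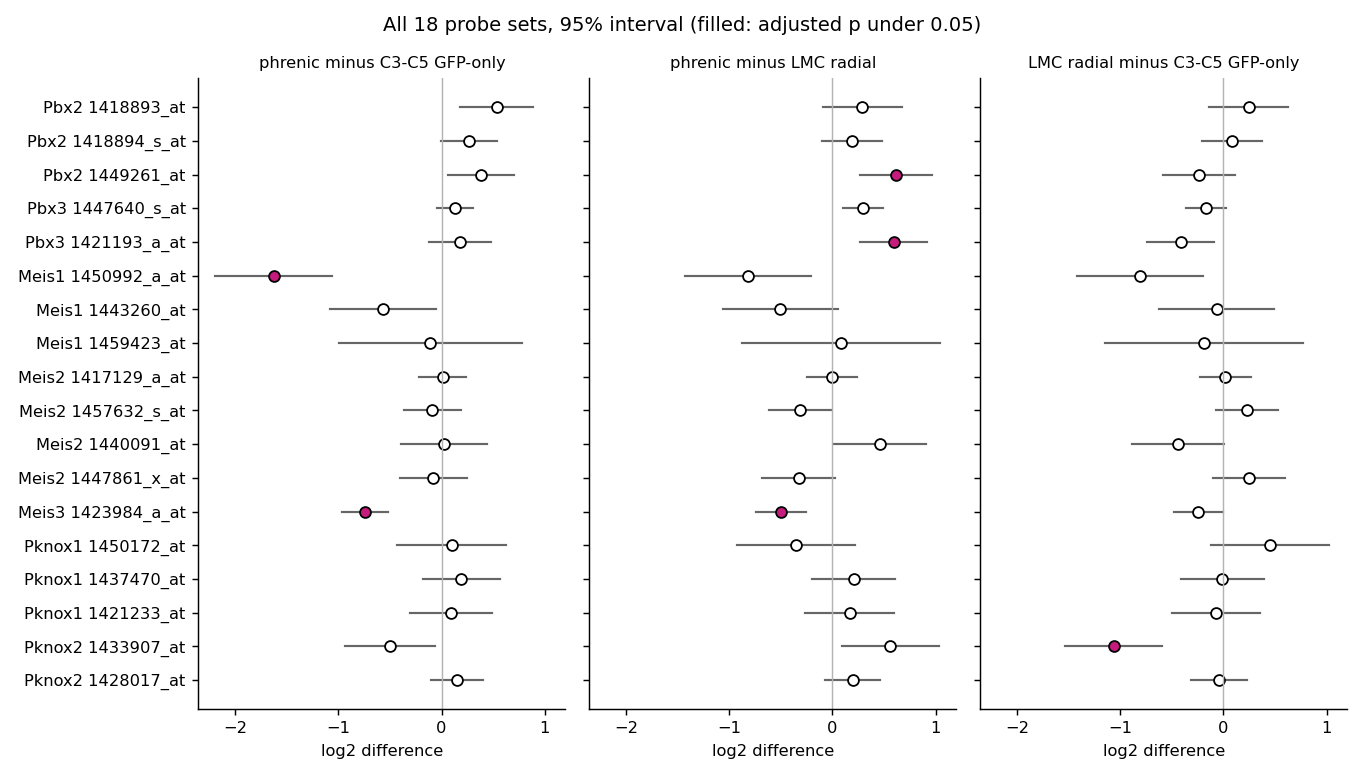
Log2 difference (horizontal axis) of all 18 probe sets of the Hox cofactor genes in the pairwise comparisons, with bars for the 95% interval and filled points for an adjusted p under 0.05. The brightest probe set of each gene comes first; the Pbx2 and Pbx3 probe sets lie above 0 in phrenic minus LMC radial, and the Meis2 probe sets lie on both sides of 0.

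The genes whose values over the 11 arrays were most like a member's were named by Pearson correlation, as a description, since arrays of a type share their label and the set of arrays. Meis1 was most like Polr2b (0.97), an RNA polymerase II subunit, Clasp1 (0.95), a microtubule binding protein, and Mettl23 (0.95). Meis3 was most like Cbln1 (0.97), a secreted synaptic organiser, Rimbp2 (0.95), a presynaptic scaffold, and Hmgb3 (0.95). Pknox2 was most like Lta4h (0.95), an enzyme of leukotriene synthesis, Hoxd3os1 (0.93), an antisense RNA at the Hoxd3 locus, and Bnc2 (0.92). Pbx3 was most like Runx1t1 (0.98), Edil3 (0.97) and Mbnl2 (0.97), and Pbx2 was most like Lhfpl2 (0.98), Ccdc182 (0.97) and Trim34a (0.96). The highest values for Meis2 were those of Cebpzos (0.94), Dcaf12 (0.94) and Eef1akmt2 (0.92), and for Pknox1 those of Ctps (0.92), Cfap298 (0.91) and Tbca (0.90).

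Other genes of the same machinery were read from lists. Of 10 measured genes for other TALE homeodomain proteins, 0 were higher and 1 lower in phrenic neurons than in C3-C5 GFP-only cells, 4 were higher and 0 lower in phrenic than in LMC radial neurons, and 0 were higher and 4 lower in LMC radial neurons than in C3-C5 GFP-only cells. The ones that passed were the Iroquois genes Irx1, Irx2, Irx3 and Irx5 and, in phrenic minus LMC radial alone, Mkx. Irx5 averaged 7.84 ± 0.34 in phrenic neurons, 4.62 ± 0.83 in LMC radial neurons and 8.70 ± 0.21 in C3-C5 GFP-only cells (phrenic minus LMC radial 3.22 ± 0.33, adjusted p = 0.000226). Irx3 was higher in phrenic than in LMC radial neurons by 2.28 ± 0.38 (adjusted p = 0.00495), and Irx2 fell by 1.25 ± 0.18 in phrenic neurons against C3-C5 GFP-only cells (adjusted p = 0.00538).

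The Hox partners of the cofactors differed mainly in comparisons with LMC radial neurons. Of 26 measured Hox genes of paralog groups 1 to 10, 0 were higher and 1 lower in phrenic neurons than in C3-C5 GFP-only cells, 8 were higher and 6 lower in phrenic than in LMC radial neurons, and 2 were higher and 9 lower in LMC radial neurons than in C3-C5 GFP-only cells. Hoxc9, a thoracic Hox gene, was lower in phrenic than in LMC radial neurons (-5.05 ± 0.25, adjusted p = 1.43e-06). Hoxa4 was higher in phrenic than in LMC radial neurons by 1.58 ± 0.14 (adjusted p = 0.000113), and Hoxb5 by 1.53 ± 0.15 (adjusted p = 0.000184). Of 10 measured genes listed as partners or regulators of TALE proteins, 1 was higher and 0 lower in phrenic neurons than in C3-C5 GFP-only cells, and none passed between LMC radial neurons and either other type. The 1 that passed, Myh9, a non-muscle myosin heavy chain, was higher in phrenic neurons than in C3-C5 GFP-only cells by 0.67 ± 0.14 (adjusted p = 0.0408). Pbxip1, a Pbx binding protein, gave 0.17 ± 0.11 in that comparison (adjusted p = 0.611).

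Retinoic acid induces Meis genes in many cells, and whether it bears on the Meis differences here was not tested. Of 15 measured genes of the retinoid pathway, 0 were higher and 4 lower in phrenic neurons than in C3-C5 GFP-only cells. Against LMC radial neurons 1 was higher and 3 were lower in phrenic neurons, and LMC radial neurons had 0 higher and 4 lower against C3-C5 GFP-only cells. Aldh1a2, the enzyme that makes retinoic acid in limb-level motor neurons, averaged 9.68 ± 0.31 in phrenic neurons, 11.21 ± 0.11 in LMC radial neurons and 10.91 ± 0.06 in C3-C5 GFP-only cells. It fell by 1.53 ± 0.16 in phrenic neurons against LMC radial neurons (adjusted p = 0.000228) and fell by 1.23 ± 0.14 against C3-C5 GFP-only cells (adjusted p = 0.00136). Stra6, the retinol uptake receptor, fell by 2.08 ± 0.22 in phrenic neurons against LMC radial neurons (adjusted p = 0.000306) and fell by 1.29 ± 0.20 against C3-C5 GFP-only cells (adjusted p = 0.00824). Unlike Meis1 and Meis3, Aldh1a2 and Stra6 averaged highest in LMC radial neurons. Crabp1 of the same list went the other way, higher in phrenic than in LMC radial neurons by 2.41 ± 0.32 (adjusted p = 0.00143). Against C3-C5 GFP-only cells its difference was -0.28 ± 0.30 (adjusted p = 0.797). Of 9 measured genes known to be read by Hox and TALE complexes, a list that shares Aldh1a2 and Rarb with the retinoid list, 0 were higher and 2 lower in phrenic neurons than in C3-C5 GFP-only cells, 1 was higher and 1 lower than in LMC radial neurons, and 0 were higher and 3 lower in LMC radial neurons than in C3-C5 GFP-only cells. Rarb, a retinoic acid receptor, fell by 0.96 ± 0.20 in phrenic neurons against C3-C5 GFP-only cells (adjusted p = 0.0343).

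The 4 pairwise calls were refitted under each alternative. Meis1 and Meis3 in phrenic minus C3-C5 GFP-only each passed in 23 of 26 alternatives, and leaving out any single array kept both calls, with Meis1 between -1.78 and -1.38 and Meis3 between -0.82 and -0.69. Meis3 in phrenic minus LMC radial passed in 17 of 25, and Pknox2 in LMC radial minus C3-C5 GFP-only in 19 of 25. No called difference changed sign in any alternative.

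**Figure D4:**
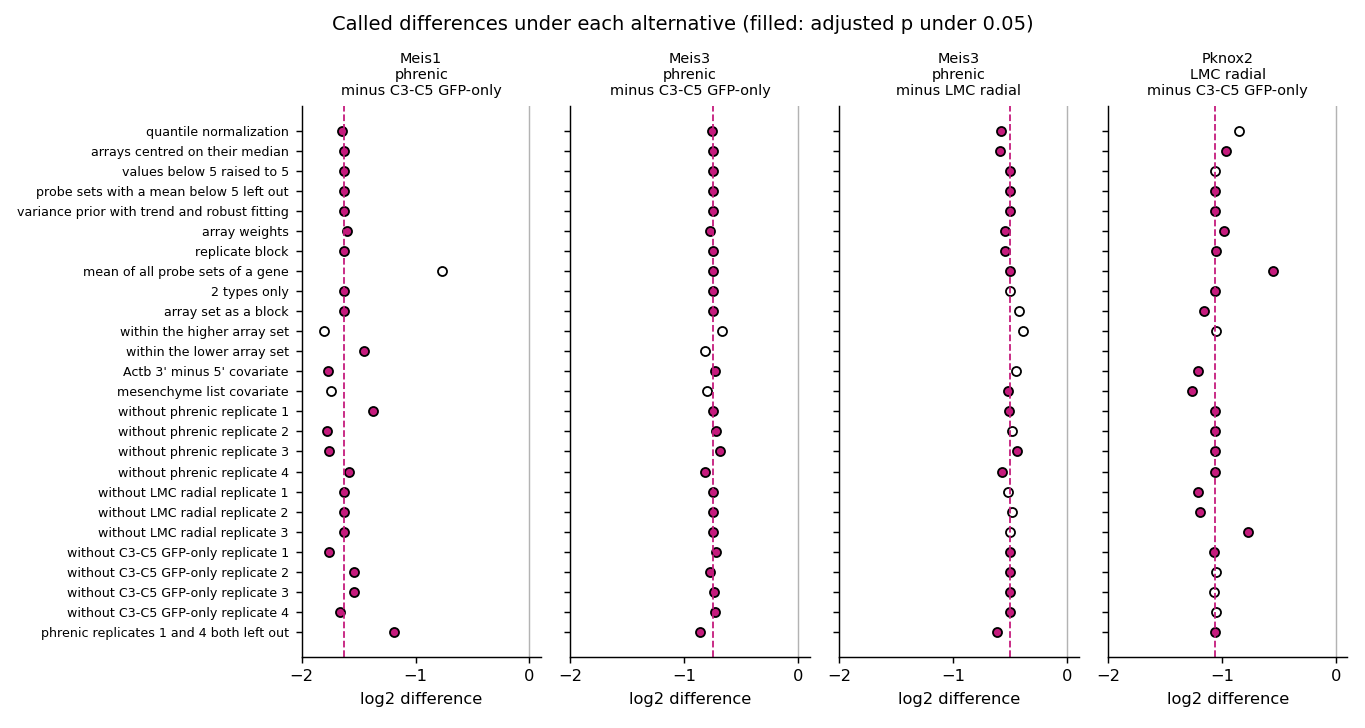
Log2 difference (horizontal axis) of the 4 pairwise calls under each alternative (rows), with filled points for an adjusted p under 0.05 and the dashed line at the value reported. Points stay left of 0 throughout; the Meis1 value under the mean of all probe sets, -0.77, lies farthest from its line.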

How the data were processed

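Gene expression in 4 phrenic, 3 LMC radial and 4 C3-C5 GFP-only samples was read on Affymetrix expression arrays. Per the submitters' processing notes, the authors made the deposited log2 values with RMA, a method of background correction, quantile normalization over arrays and summary over the probes of a set. The version and array software are not given in the sources used here. The deposited table held 45101 probe sets, of which 64 were controls and went untested. Of the 45037 tested, 34945 had 1 gene symbol, 932 several and 9160 none, by GEO's platform annotation. No filter on dim probe sets was applied, so all 18 member probe sets entered every test. The number of arrays limits the precision.

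All 11 arrays entered 1 fit in limma 3.58.1 (R 4.3.3), with 3 group means and eBayes moderation (residual degrees of freedom 8, prior 2.92), and 6 comparisons were made. Two-sided p-values were adjusted over all probe sets of each comparison (Benjamini-Hochberg), and the fit was checked on simulated data. The members, gene lists and tests were chosen with earlier results of these data known. Named genes are the 7 members, up to 4 genes of each list with the smallest pairwise p, and the 3 genes most like each member, and not all of them are given values in the text. Array sets were split at the widest gap between the arrays' 25th percentiles. No arrays were duplicates. The replicate numbers come from the sample titles. Correlations of deviations between arrays of the same number were 0.13 to 0.22 for the 4 phrenic and C3-C5 GFP-only pairs. They were -0.08 to 0.05 for the 6 pairs with LMC radial arrays. The labels do not say what a number marks, so the main fit held no pairing. Replicate numbers entered only as the replicate block among the alternatives. Promoter sequences are from RefSeq on GRCm38.p6.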

Additional observations from a re-analysis of the deposited data

Results flagged for a closer look

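Of 36 groups of 4 arrays tested for an array far from the others, 2 were flagged by Dixon's test, and chance flags about 1 in 20. The second Meis1 probe set, 1443260_at, was at 7.28 in C3-C5 GFP-only replicate 2, with the next array at 8.08 (gap over range 0.901). The dimmest Pknox1 probe set, 1421233_at, was at 4.47 in C3-C5 GFP-only replicate 1, with the next at 4.89 (0.855). Neither represents its gene, and the cause was not tested.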

How the results depend on the processing

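Of 1036 member differences refitted, 53 lost a call, 24 gained one and 0 of those that either fit called reversed. The other 959 kept their side of the threshold, and the cause was not tested. Differences that neither fit called are among the 959 whatever their direction. Meis2 in phrenic minus C3-C5 GFP-only, never called, ran from -0.06 to 0.22. A count of members called could stay the same with other genes in it. Phrenic minus LMC radial called Meis1, not Meis3, with the array set block, within the higher array set and with the Actb covariate. With a floor at 5, LMC radial called Pbx3, not Pknox2, against C3-C5 GFP-only cells and against the mean of the other types. Phrenic against that mean called Pbx2 and Meis3 with the mean of all probe sets, and Pbx2 and Meis1 within the higher array set. The counts themselves moved as follows. For phrenic minus C3-C5 GFP-only (2), the count was 1 with the mean of all probe sets and within the lower array set, 0 within the higher array set and with the mesenchyme covariate, and 2 to 3 with 1 array left out. For phrenic minus LMC radial (1), it was 2 after quantile normalization, with values below 5 raised to 5, with a trended and robust prior, with the replicate block and with the mean of all probe sets, 0 with 2 types only, and 0 to 1 with 1 array left out. For LMC radial minus C3-C5 GFP-only (1), it was 0 after quantile normalization and within the higher array set, 2 with array weights, the replicate block, 2 types only and phrenic replicates 1 and 4 both left out, and 0 to 1 with 1 array left out. Against the mean of the other types, phrenic (2) gave 1 with the mesenchyme covariate, 3 with a floor at 5 and with a trended and robust prior, and 2 to 3 with 1 array left out. LMC radial (1) gave 0 after quantile normalization, within the higher array set and with the Actb covariate, 2 with a trended and robust prior and with the mean of all probe sets, and 0 to 1 with 1 array left out. C3-C5 GFP-only (2) gave 1 after quantile normalization, median centring, a floor at 5, the replicate block and the mean of all probe sets, 0 within the higher array set and with the mesenchyme covariate, 3 with array weights and with phrenic replicates 1 and 4 both left out, and 0 to 2 with 1 array left out. The replicate block changed no other count, and the counts it changed all involve LMC radial arrays. None of the 8 phrenic and C3-C5 GFP-only arrays correlated best with its own number. Fits within an array set rest on few arrays. Probe sets near or below the array medians, such as those of Pknox1 and Pknox2 with a mean below 5, carry little signal over background.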
